A study of Homo sapiens and synthetic construct with 52 samples.

Results

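The adaptors, exchange factors and phosphatase that carry signals from the BCR-ABL1 kinase were followed through the CRISPRi screens of this series by the guide RNAs that target them. A guide was taken as a member when the gene symbol that opens its name was GAB2, GAB1, GRB2, SOS1, SOS2, SHC1, CRKL, CRK, PTPN11 or VAV1. This gave 60 of the 103074 guides, aimed at 12 of 20374 promoters and 10 of 18788 genes, beside 1895 non-targeting guides. GRB2 and SHC1 each have a P1 and a P2 promoter with 5 guides apiece. The other 8 genes have 5 guides on 1 combined promoter (P1P2). Members and the further gene lists below were chosen with earlier results of these data known, so their shares of calls are descriptive.

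All screens used K562, a chronic myeloid leukemia line carrying BCR-ABL1, in which a pool of cells expressing dCas9-KRAB (a catalytically dead Cas9 fused to a transcriptional repressor) had been sorted. In the survival screens the newly cloned LGR library was carried at 1000-fold coverage (1 T0 sample, 3 Tf samples) or 100-fold coverage (2 T0, 4 Tf), with Tf collected after 7 days of culture. In the dasatinib screen the LGR library and the older legacy library were each carried at 100-fold coverage as 2 T0 samples, 2 samples given 0.01% DMSO and 2 given a single dose of 0.75 nM dasatinib (DASA), a BCR-ABL1 and SRC family kinase inhibitor, for 72 h followed by 6 days without drug. Each library of the dasatinib screen was transduced once and then split, and the replicates of the survival screens are also described as technical. P-values of the tests over samples (edgeR, DESeq2 and limma) thus measure only the spread between such samples. Those of the exact Mann-Whitney test, run over guides, measure spread between guides and not between samples.

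BCR-ABL1 phosphorylates itself and thereby creates a docking site for GRB2, which brings in the RAS exchange factor SOS1 and the scaffold GAB2. Phosphorylated GAB2 in turn binds SHP2, the phosphatase encoded by PTPN11, and subunits of PI3K, so that the complex feeds both the RAS-ERK and the PI3K-AKT branches. CRKL is a prominent BCR-ABL1 substrate in leukemic cells, and SHC1 offers GRB2 a second way to the kinase.

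The files held counts of reads per guide and no measure of the target transcripts, so the degree of knockdown was not known for any member. Total counts ran from 105684438 to 111002750 in the 1000-fold samples, from 47678549 to 54678272 in the 100-fold samples and from 15739255 to 19844033 in the dasatinib screen. BCR, which drives the fusion in this line, and GATA1, an erythroid transcription factor that K562 depends on, served as markers of the line: the BCR phenotype was -4.16 ± 0.25 (SD, n = 3) at 1000-fold coverage and that of GATA1 was -4.30 ± 0.26, with exact Mann-Whitney adjusted p = 5.5e-10 and 4.5e-12. GATA1 was also lower in the 100-fold screen and in both DMSO arms, where its phenotype lay between -6.23 and -3.06, on 1 and 2 guides in the DMSO arms. In DASA against DMSO its phenotype was 6.38 with LGR, not called, and it could not be scored with legacy. Why a gene lost in growth was this high there was not tested. ABL1, whose own promoter does not drive the fusion, was not called in any of the 6 comparisons.

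Guides are named by strand and hg19 position. The 5 GAB2 guides lie on the minus strand between 78128468 and 78128897, and the first of them is 360 bases from its nearest neighbour while each of the other 4 has a neighbour within 38 bases. The GRB2 P1 guides are laid out alike, with the guide at 73401305 standing 416 bases from the next. Several guides overlap in sequence, since neighbours lie 3 bases apart on the same strand: 78128856 and 78128859 for GAB2, 73401721 and 73401724 for GRB2 P1, 154946434 and 154946437 for SHC1 P2, 144258106 and 144258109 for GAB1, and 39348136, 39348139 and 39348142 for SOS1. Same-strand neighbours 5 to 17 bases apart, found among the guides of GRB2 P2, VAV1, SHC1 P1, SOS2 and CRKL, overlap as well. Such guides are not independent readings of their gene.

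As context for where CRISPRi acts, the 250 bases upstream of the annotated RefSeq starts (GRCh38.p14) are printed for GAB2, which had the lowest growth phenotype of the members in 3 of 4 growth comparisons, and for GRB2, where 1 P1 guide stood apart from the other 4. The guide positions above are on hg19 and were not placed on these windows. Sequences run 5′ to 3′ along the gene, and capitals mark GG, the fixed bases of an NGG protospacer-adjacent motif on the printed strand.
GAB2, chr11:78417821-78418070 (minus): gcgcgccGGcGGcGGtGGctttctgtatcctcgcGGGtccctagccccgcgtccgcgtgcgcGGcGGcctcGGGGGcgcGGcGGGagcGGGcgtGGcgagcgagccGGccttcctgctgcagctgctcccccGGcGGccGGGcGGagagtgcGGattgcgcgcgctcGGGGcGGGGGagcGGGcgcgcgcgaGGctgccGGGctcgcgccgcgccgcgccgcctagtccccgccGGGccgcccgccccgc
GAB2, chr11:78341920-78342169 (minus): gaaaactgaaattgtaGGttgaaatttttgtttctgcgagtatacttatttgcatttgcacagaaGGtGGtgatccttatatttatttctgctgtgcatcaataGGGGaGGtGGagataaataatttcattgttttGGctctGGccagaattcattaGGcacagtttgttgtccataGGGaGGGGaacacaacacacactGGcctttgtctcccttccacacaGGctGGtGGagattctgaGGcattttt
GRB2, chr17:75405679-75405928 (minus): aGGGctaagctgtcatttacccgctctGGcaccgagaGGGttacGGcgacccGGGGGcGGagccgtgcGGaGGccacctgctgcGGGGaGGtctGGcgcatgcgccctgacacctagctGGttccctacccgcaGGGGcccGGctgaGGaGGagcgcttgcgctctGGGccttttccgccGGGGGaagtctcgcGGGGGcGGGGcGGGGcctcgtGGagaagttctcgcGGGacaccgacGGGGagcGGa
Counted on both strands with overlaps allowed, NGG matched 71 times in the first GAB2 window, 28 times in the second and 70 times in the GRB2 window. The median over 35116 such windows was 48, and 35114 windows held at least 1 match. The table matched 8 of the 10 genes, all but GAB1 and PTPN11.

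The first question was which members K562 cells lost during growth without drug, and GAB2, SOS1 and PTPN11 were the member promoters called lower in both survival screens by the exact Mann-Whitney test over guides. Values per promoter are phenotypes, the log2 enrichment of the 3 strongest guides relative to non-targeting guides, and their SD is taken over the final samples. At 1000-fold coverage GAB2 had a phenotype of -1.53 ± 0.05 (n = 3), PTPN11 of -0.79 ± 0.10 and SOS1 of -0.65 ± 0.08, and the exact two-sided Mann-Whitney test of their guides against the non-targeting guides gave adjusted p = 0.0031, 0.00283 and 2.91e-07. These 3 of 12 promoters were the only members called by this test, all lower, against 7.19% of all promoters called lower and 0.118% called higher. The median phenotype was -0.13 over the 12 members and -0.05 over all promoters. The quasi-likelihood test of edgeR, run guide by guide over samples, put 13 of 60 member guides lower and 0 higher, against 9.07% of all guides lower and 1.08% higher, and DESeq2 called 12 lower. A limma fit over samples used the mean of all guides of a promoter that reached a mean of 50 counts in either arm. It called 4 member promoters lower (GRB2 P1 beside the 3), where 19.2% of all promoters were called lower and 1.59% higher.

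At 100-fold coverage the same 3 promoters were called lower, with phenotypes of -2.44 ± 0.44 (n = 4) for GAB2, -1.54 ± 0.41 for PTPN11 and -1.23 ± 0.05 for SOS1 (exact Mann-Whitney adjusted p = 0.000991, 0.000553 and 0.0054). The samples gave -1.79, -2.65, -2.73 and -2.58 for GAB2, -1.41, -1.15, -1.49 and -2.11 for PTPN11 and -1.30, -1.19, -1.23 and -1.22 for SOS1, so SOS1 varied least of the 3 between samples. Of all promoters, 6.64% were called lower and 0.0589% higher. The members' median was -0.16 and that of all promoters -0.10. edgeR called 8 of 60 member guides lower, against 5.68% of all guides lower and 0.0437% higher, and DESeq2 called 11. limma called the same 4 promoters as at 1000-fold coverage, where 13.4% of all promoters were lower and 0.0491% higher. Without Tf sample 1 SOS1 lost its call (exact Mann-Whitney adjusted p = 0.0772). Without either T0 sample, which left 1 T0 sample, edgeR called fewer guides among members and over all guides alike.

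In the DMSO arm of the LGR library GAB2 (-3.34 ± 0.58, n = 2), SOS1 (-2.08 ± 0.35) and the SHC1 P2 promoter (-0.77 ± 0.33) were called lower, with exact Mann-Whitney adjusted p = 0.0161, 2.92e-07 and 0.033. PTPN11 had a phenotype of -2.53 ± 0.45 with adjusted p = 0.279. The DMSO samples gave -3.75 and -2.93 for GAB2, -2.33 and -1.83 for SOS1 and -2.21 and -2.84 for PTPN11. Of all promoters, 6.15% were called lower and 0.0885% higher, and the medians were -0.35 over members and -0.10 over all promoters. edgeR called 10 of 60 member guides lower, against 7.42% of all guides lower and 0.535% higher. The SHC1 P2 call was lost without T0 sample B or DMSO sample 1. By edgeR fewer guides were called without either T0 sample and more without DMSO sample 2, among members and over all guides alike. Each of these settings left 1 sample in an arm.

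In the DMSO arm of the legacy library SOS1 alone was called, at -1.26 ± 0.13 (n = 2, exact Mann-Whitney adjusted p = 0.000332), against 5.98% of all promoters called lower and 0.143% higher. The DMSO samples gave -1.17 and -1.35 for SOS1, -1.43 and -0.73 for GAB2 and -0.97 and -0.99 for PTPN11. The members' median was -0.26, beside -0.12 for all promoters. edgeR called 5 of 60 member guides lower, against 6.88% of all guides lower and 0.619% higher, so the share of members was near the background here. Fewer guides were called without either T0 sample and more without either DMSO sample, among members and over all guides alike. Each of these fits left 1 sample in an arm. limma called 5 member promoters lower in each DMSO arm (GAB2, SOS1, PTPN11, GRB2 P1 and SHC1 P2), where 16.6% of all promoters were called lower and 0.364% higher with the LGR library, and 13.9% and 0.511% with the legacy library.

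GRB2, the adaptor that docks on phosphorylated BCR, was marked by a single guide. The guide at 73401305 gave 688 counts at T0 and 142, 108 and 149 at Tf in the 1000-fold screen. In the 100-fold screen it went from 309 and 441 counts at T0 to 48, 24, 108 and 101 at Tf. All Tf values of either screen lay below all T0 values. In the dasatinib screen it had 91 and 63 counts at LGR T0 and 16 and 0 in LGR DMSO, and 123 and 117 at legacy T0 against 16 and 12 in legacy DMSO. edgeR gave log2 fold changes of -2.41 ± 0.32 (SE), -2.48 ± 0.53, -3.08 ± 0.70 and -3.03 ± 0.45 in the 4 growth comparisons, with adjusted p = 2.4e-08, 0.0034, 0.0034 and 1e-05. The other 4 guides of GRB2 P1 lay between -0.57 and 0.33 in all 4 and none was called. The P1 phenotype (-0.85 ± 0.09, -0.95 ± 0.31, -1.37 ± 0.91 and -1.35 ± 0.08) was not called by the exact Mann-Whitney test (adjusted p = 0.8, 0.848, 0.821 and 0.247), although limma called it in all 4 comparisons, and without legacy DMSO sample 2 the Mann-Whitney adjusted p in that library was 0.0422. The guide at 73401305 lost its call at 100-fold coverage without T0 sample 1 or 2 (edgeR adjusted p = 0.0601 and 0.263) and in LGR DMSO without T0 sample A or B (0.458 and 0.114) or with DESeq2 (0.575).

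The second GRB2 promoter, P2, showed none of this. Its 5 guides lay between -0.27 and 0.26 on the log2 scale in the 4 comparisons.

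SHC1, an adaptor that links tyrosine kinases to GRB2, was called at its P2 promoter in LGR DMSO by the exact Mann-Whitney test, and in both DMSO arms by limma (adjusted p = 0.0185 with LGR and 0.0387 with legacy). The SHC1 P1 phenotype lay between -0.17 and 0.20 in the 4 growth comparisons. That of P2 was -0.20 ± 0.05 at 1000-fold and -0.01 ± 0.17 at 100-fold coverage, then -0.77 ± 0.33 in LGR DMSO and -0.55 ± 0.03 in legacy DMSO (exact Mann-Whitney adjusted p = 0.21 in the last). No single SHC1 guide was called by edgeR. Its P2 guide furthest from the rest, at 154946876, had 112 and 95 counts at LGR T0 and 39 and 55 in LGR DMSO, a log2 fold change of -0.99 ± 0.37 with adjusted p = 0.13. The remaining P2 guides, at 154946434, 154946437, 154946468 and 154946597, had log2 fold changes of -0.42, -0.31, -0.65 and -0.02 there.

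GAB2, the scaffold that recruits SHP2 and PI3K, had the lowest phenotype of the members in both survival screens and in LGR DMSO. The guide at 78128828 had 834 counts at T0 and 272, 267 and 274 at Tf with 1000-fold coverage. With 100-fold coverage it had 326 and 287 counts at T0 and 81, 27, 45 and 35 at Tf. With LGR in the dasatinib screen it had 59 and 89 counts at T0 and 0 and 4 in DMSO. The groups did not overlap in any of these. The fitted log2 fold changes were -1.66 ± 0.21, -2.77 ± 0.58 and -5.00 ± 0.81 (edgeR adjusted p = 5.7e-09, 0.0026 and 6.5e-05), the last resting on 4 DMSO counts in all. The call was lost at 100-fold coverage without T0 sample 1 or 2 (adjusted p = 0.393 and 0.113) and in LGR DMSO without T0 sample B (0.235).

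Its neighbours at 78128856, 78128859 and 78128897 were called lower in the same 3 comparisons. For 78128856 the counts went from 1466 to 589, 617 and 634 at 1000-fold coverage and from 180 and 127 to 41 and 49 in LGR DMSO. For 78128859 they went from 1123 to 409, 341 and 447 and from 155 and 100 to 17 and 12. For 78128897 they went from 1070 to 635, 435 and 481 and from 158 and 138 to 25 and 55. Log2 fold changes of these 3 guides ran from -1.53 to -1.09 at 1000-fold coverage, from -2.19 to -1.81 at 100-fold coverage and from -2.96 to -1.61 in LGR DMSO. The fifth guide, at 78128468, had 1247 counts at T0 and 1297, 1297 and 1192 at Tf, and its log2 fold change lay between -0.05 and 0.26 in the 4 growth comparisons, with none called. Leaving out a T0 sample ended calls in LGR DMSO for 78128856 (adjusted p = 0.251 without A), 78128859 (0.0795 without A) and 78128897 (0.0815 without A, 0.0517 without B), and at 100-fold coverage for 78128859 (0.0697 without sample 1).

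In the legacy library GAB2 guides were scarce. Counts at T0 were 21 and 8 for 78128828, 10 and 20 for 78128856, 40 and 28 for 78128897 and 83 and 78 for 78128859. Only 2 of the 5 guides passed the minimum of 50 counts used for the promoter score, which came to -1.08 ± 0.50 (exact Mann-Whitney adjusted p = 0.738). Guide 78128859 had 12 and 20 counts in legacy DMSO and was called lower (-2.26 ± 0.52, edgeR adjusted p = 0.0029), a call lost without T0 sample A (0.15) or B (0.122). On the mean of the same 2 guides, tested over samples, limma gave -1.05 ± 0.29 for GAB2 with adjusted p = 0.023.

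GAB1, the widely expressed relative of GAB2, was not called as a promoter in any growth comparison, with phenotypes between -0.40 and -0.02. Of its guides only that at 144258463 was called, at 1000-fold coverage (-0.34 ± 0.11, edgeR adjusted p = 0.0415), and that call was lost without Tf sample 3 (0.154) and with DESeq2 (0.0592). CRK and CRKL, SH2-SH3 adaptors of which CRKL is a classic BCR-ABL1 substrate, were not called. The CRKL phenotype was -0.16 ± 0.05, -0.16 ± 0.10, 0.07 ± 0.12 and -0.10 ± 0.14, and that of CRK was -0.10 ± 0.05, -0.27 ± 0.07, 0.04 ± 0.10 and -0.03 ± 0.24, in the 1000-fold, 100-fold, LGR DMSO and legacy DMSO comparisons. No CRK or CRKL guide was called in any of them.

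PTPN11, which encodes the phosphatase SHP2 that GAB2 recruits, was read mainly through a pair of guides 35 bases apart. The guide at 112856929 had 941 counts at T0 and 371, 333 and 468 at Tf with 1000-fold coverage. With 100-fold coverage it had 500 and 493 counts at T0 and 156, 126, 109 and 28 at Tf. In the dasatinib screen it had 115 and 117 counts at LGR T0 and 4 and 2 in LGR DMSO, and 150 and 176 at legacy T0 against 58 and 47 in legacy DMSO. Every final sample lay below every T0 sample, and edgeR gave -1.31 ± 0.17, -2.31 ± 0.45, -5.07 ± 0.59 and -1.57 ± 0.32 (adjusted p = 2.6e-08, 0.0013, 9.8e-07 and 0.00075). The legacy call was lost without T0 sample B (adjusted p = 0.0875).

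The guide at 112856894 fell in 3 of the 4 comparisons by the same test, at -0.61 ± 0.20, -1.77 ± 0.38 and -1.37 ± 0.20 in the 1000-fold, LGR DMSO and legacy DMSO comparisons (adjusted p = 0.034, 0.0019 and 6.1e-06), and gave -1.32 ± 0.42 at 100-fold coverage (adjusted p = 0.082). Its counts were 140 and 107 at LGR T0 against 33 and 32 in DMSO, and 399 and 393 at legacy T0 against 144 and 149. Its call was lost at 1000-fold coverage without Tf sample 1 (adjusted p = 0.145) and in LGR DMSO without T0 sample A (0.299) or B (0.0792). The other PTPN11 guides, at 112857139, 112857175 and 112857218, lay between -0.49 and 0.32 and were not called. Scored on same-numbered pairs only, which left out Tf samples 3 and 4, PTPN11 lost its 100-fold call (exact Mann-Whitney adjusted p = 0.0913). limma called PTPN11 lower in all 4 comparisons.

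SOS1, the exchange factor that loads RAS with GTP, was the one member that the exact Mann-Whitney test called in all 4 growth comparisons. That test counts guides as independent, although the SOS1 guides at 39348136, 39348139 and 39348142 overlap. limma called SOS1 in all 4 comparisons, and also GAB2, PTPN11 and GRB2 P1. All 5 SOS1 guides had negative log2 fold changes in each comparison. At 1000-fold coverage every SOS1 guide was called, with log2 fold changes from -0.78 to -0.41. The guide at 39348136 had 1026 counts at T0 and 628, 654 and 555 at Tf. In the 100-fold screen it had 366 and 540 counts at T0 and between 115 and 324 at Tf, with all 4 Tf values below both T0 values. In LGR DMSO it had 25 and 23 counts, against 153 and 156 at T0, which edgeR fitted at -2.53 ± 0.37 (adjusted p = 2.1e-05). In legacy DMSO it had 60 and 41 counts, against 121 and 100 at T0, and was not called (-1.07 ± 0.37, adjusted p = 0.08).

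The guides 39348139 and 39348142, which overlap it, fell to 30 and 66 and to 26 and 41 counts in LGR DMSO, from 172 and 169 and from 147 and 98 at T0 (edgeR adjusted p = 0.0013 and 0.0034). The 100-fold call of 39348136 (-1.22 ± 0.35, adjusted p = 0.038) was lost without either T0 sample (0.104 and 0.613) or without Tf sample 1, 3 or 4 (0.088, 0.0963 and 0.0625). That of 39348139 (-1.14 ± 0.26, 0.0058) was lost without T0 sample 2 (0.419). In LGR DMSO the call of 39348139 was lost without T0 sample B (0.0509) and kept without A (0.0222), and that of 39348142 was lost without A (0.477) or B (0.0534).

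The legacy call at guide level was 39348102, with 100 and 99 counts at T0 and 23 and 39 in DMSO (-1.62 ± 0.43, edgeR adjusted p = 0.011), and it was lost without T0 sample A (0.201) or B (0.236). At 1000-fold coverage the call of this guide was lost without Tf sample 3 (0.0581). The fifth guide, at 39347763, was called at 1000-fold coverage only (-0.48 ± 0.14, adjusted p = 0.014) and gave -0.13, -0.82 and -0.74 in the 100-fold, LGR DMSO and legacy DMSO comparisons.

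SOS2, the paralog of SOS1, had phenotypes between -0.33 and 0.10 and VAV1, an exchange factor for RAC in blood cells, between 0.05 and 0.15 in the 4 growth comparisons. No SOS2 or VAV1 guide was called. The lowest SOS2 guide, at 50698265, gave -0.84 at 100-fold coverage and -0.78 in LGR DMSO, with edgeR adjusted p = 0.0898 and 0.0714.

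GAB2 guides were already below their plasmid level at T0. Relative to the plasmid of its library, the mean log2 level of the 5 GAB2 guides was -0.20 at T0 of the 1000-fold screen, -0.27 and -0.32 at T0 of the 100-fold screen, -0.80 and -0.86 at LGR T0 of the dasatinib screen and -1.28 and -1.61 at legacy T0. No other member promoter left the range from -0.40 to 0.28 at any T0, and the median of all promoters lay between -0.03 and 0.01. At LGR T0 of the dasatinib screen 2.94% and 3.25% of all promoters lay lower than GAB2, and at legacy T0 1.18% and 1.62%. In the coverage titration, sampled after selection, GAB2 (LGR and legacy together) lay between -0.69 and -0.21 in the 12 samples at 50-fold to 200-fold coverage, and between -1.15 and -0.22 in the 4 samples at 10-fold coverage, where replicates scattered more. Each plasmid was 1 library, so these levels carry no test. The paper gives a longer puromycin selection in the dasatinib screen than in the survival screens, so these T0 times may not match.

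The design also asked whether coverage or the library changed these effects. At the level of guides the difference between the 100-fold and the 1000-fold change was called for 0 of 60 member guides and 0% of all guides by edgeR (1 member guide had an unadjusted p under 0.05). limma likewise called 0 promoters. For GAB2 the difference (100-fold minus 1000-fold, all guides) was -0.75, with a 95% interval from -1.34 to -0.15 and limma adjusted p = 1. That of PTPN11 was -0.50 (interval -1.16 to 0.15) and for SOS1 -0.25 (interval -0.66 to 0.15).

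Between libraries, edgeR called 1 member guide, PTPN11 at 112856929, whose DMSO change was lower with LGR than with legacy by -3.54 ± 0.68 (adjusted p = 0.0323). Among all guides 0.0796% were called lower and 0.0641% higher. The call was lost without either T0 sample of either library (adjusted p = 0.18 to 0.328) or without either LGR DMSO sample (0.0508 and 0.106). By limma 0 member promoters passed for this difference (3 at an unadjusted p under 0.05), where 0.0344% of all promoters were called lower and 0.00491% higher. The LGR minus legacy difference was -1.24 (95% interval -2.13 to -0.34, adjusted p = 0.353) for GAB2, -0.92 (-1.34 to -0.50, adjusted p = 0.112) for PTPN11 and -0.69 (-1.26 to -0.11, adjusted p = 0.419) for SOS1, while for GRB2 P1 it was -0.06 (-0.71 to 0.58).

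The last question was which members changed the response to dasatinib. No member promoter was called in DASA against DMSO by the exact Mann-Whitney test in either library, where 0.651% (LGR) and 0.725% (legacy) of all promoters were called higher and 0.397% and 0.516% lower. At an unadjusted p under 0.05 the counts were 0 of 12 with LGR and 2 of 12 with legacy. The members' median phenotype was -0.13 with LGR and -0.20 with legacy, beside 0.02 and -0.01 over all promoters. edgeR called 0 member guides with LGR (5 at an unadjusted p under 0.05, 1 called by DESeq2), where 0.0954% of all guides were called higher and 0.00393% lower. With legacy it called 1, higher, where 0.572% of all guides were called higher and 0.0349% lower, and DESeq2 called 2. The DASA comparison shares its DMSO samples with the growth comparison. Between libraries, 0 member guides differed in their DASA change by edgeR (3 at an unadjusted p under 0.05), where 0.00195% of all guides were called lower and 0.000977% higher, and limma called 0 promoters.

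PTPN11 had the highest phenotype of the members in both libraries, at 1.70 ± 0.32 (n = 2) with LGR and 1.56 ± 0.24 with legacy (exact Mann-Whitney adjusted p = 0.955 and 0.155), which placed it at the 98.7th percentile of all promoters in each. Its guide at 112856929 had 115 and 117 counts at LGR T0, 4 and 2 in DMSO and 51 and 111 in DASA. In the legacy library the same guide had 150 and 176 counts at T0, 58 and 47 in DMSO and 162 and 179 in DASA. Both DASA samples exceeded both DMSO samples in each library, and the legacy DASA values lay about where T0 had been.

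edgeR gave 4.91 ± 0.81 for this guide with LGR (adjusted p = 0.076) and 1.88 ± 0.41 with legacy (adjusted p = 0.089). With T0, DMSO and DASA in 1 fit the adjusted p values were 0.0185 and 0.0196, and with DESeq2 4.2e-05 and 0.00985, so this guide was called by those alternatives and not by the 2-group edgeR fit. The guide at 112856894 went from 144 and 149 counts in legacy DMSO to 638 and 399 in legacy DASA, beside 399 and 393 at T0, and was called higher (2.03 ± 0.34, edgeR adjusted p = 0.0355). With LGR it had 33 and 32 counts in DMSO and 85 and 48 in DASA (1.25 ± 0.57, adjusted p = 0.42). The legacy call was lost without DMSO sample 1 or 2 (0.289 and 0.24) and with total counts in place of TMM scaling (0.0538). The other 3 PTPN11 guides lay between -1.06 and 0.83 and were not called.

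Over all 5 guides limma gave 0.98 ± 0.33 with LGR (adjusted p = 0.205) and 0.97 ± 0.16 with legacy (adjusted p = 0.0181), and the difference between libraries was -0.02 with a 95% interval from -0.70 to 0.67. By this fit 1.06% (LGR) and 1.11% (legacy) of all promoters were called higher and 0.184% and 0.372% lower. The phenotypes by DASA sample were 1.47 and 1.92 with LGR and 1.73 and 1.39 with legacy.

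Few guides of GAB2 in either library, and of SOS1 with LGR, could be scored under drug. With LGR only 1 GAB2 guide (78128468, not called in growth) and 2 SOS1 guides passed the minimum of 50 counts. Their phenotypes were 0.09 ± 0.45 and -0.46 ± 0.64. With legacy 1 GAB2 guide passed (-0.79 ± 0.96), and the 5 SOS1 guides gave -0.25 ± 0.24. By edgeR, which needed 10 counts in 1 sample, all 5 GAB2 guides with LGR lay above 0, between 0.10 and 3.10. With legacy 4 GAB2 guides were tested, 3 of them below 0, between -2.54 and 0.73. No GAB2 guide was called in either library. The GAB2 guide at 78128828 had 3 and 28 counts in LGR DASA, against 0 and 4 in DMSO. The SOS1 guide at 39348136 had 15 and 22 counts in LGR DASA, against 25 and 23 in DMSO, and those groups came close to each other.

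The GRB2 guide at 73401305 had 11 and 12 counts in LGR DASA and 10 and 66 in legacy DASA, against 16 and 0 and 16 and 12 in DMSO. Its groups overlapped in both libraries and it was not called (edgeR 0.72 ± 1.57 and 1.56 ± 0.98). The GRB2 P1 phenotype was -0.61 ± 0.19 with LGR and -0.35 ± 0.45 with legacy. SHC1 P2 gave 0.45 ± 0.19 with LGR and 0.73 ± 0.31 with legacy (exact Mann-Whitney adjusted p = 0.902 and 0.25), and SHC1 P1 gave -0.16 ± 0.23 and -0.84 ± 0.36 (0.936 and 0.438). GAB1, CRK, CRKL, SOS2, VAV1 and GRB2 P2 lay between -0.56 and 0.24 in both libraries. DASA replicates were more scattered than DMSO replicates, with a chi-square per guide of 29.1 (LGR) and 22.1 (legacy) between the pair, against 6.91 and 6.73 in DMSO.

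The rest of the pathway was read from 40 further genes with 43 promoters: BCR and ABL1, the RAS-RAF-MEK-ERK, PI3K-AKT and JAK-STAT components, the RAC proteins and the known brakes. In growth 4 promoters were called lower at 1000-fold coverage, 3 at 100-fold coverage, 4 in LGR DMSO and 4 in legacy DMSO, and 0 were called higher in any of the 4 (exact Mann-Whitney test). Of all promoters 7.19%, 6.64%, 6.15% and 5.98% were called lower in these comparisons, so the pathway counts, of 43 promoters each, lay near the background. BCR and PTPN1, a tyrosine phosphatase, were among them in each, with PTPN1 at -1.83 ± 0.16, -2.30 ± 0.27, -3.27 ± 0.25 and -3.05 ± 0.02. The BCR phenotype was -5.34 ± 1.24 at 100-fold coverage, -2.82 ± 0.13 in LGR DMSO and -1.80 ± 0.05 in legacy DMSO, the last 2 values resting on 3 and 2 guides that passed the count minimum. The third called gene by size was CBL (-0.36), a ubiquitin ligase, at 1000-fold coverage and SHOC2 (-0.74), a RAF scaffold, at 100-fold coverage. It was MAP2K2 (-1.03), which encodes MEK2, in LGR DMSO and NF1 (-1.15), a RAS GTPase activator, in legacy DMSO.

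Under dasatinib 3 of 42 pathway promoters were called with LGR and 4 of 43 with legacy, all higher, beside 0.651% and 0.725% of all promoters called higher. All belonged to the 13 genes (14 promoters) listed as brakes of RAS and tyrosine kinase signalling, of which the other promoters were not called. These lists were chosen with earlier results of these data known, so the counts are descriptive and no test of brakes as a class. NF1 was at 6.06 ± 0.31 (LGR, n = 2) and 6.32 with an SD of 0.0005 (legacy), LZTR1, which targets RAS proteins for degradation, at 5.57 ± 0.12 and 6.01 ± 0.05, and PTPN1 at 4.31 ± 0.17 and 3.72 ± 0.06. The legacy library added PTPN2 (1.47 ± 0.13), a phosphatase of JAK and STAT proteins,. PTPN11, at 1.56 in the legacy library, lay near PTPN2 but had no promoter call by this test. ABL1 gave 0.34 ± 0.29 and -0.35 ± 0.08 and was not called, and BCR could be scored in the legacy library only (-0.79 ± 0.82, 1 guide).

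Among 22 family members of the adaptors, with 26 promoters, 0 were called in any growth comparison by the exact Mann-Whitney test. Of all promoters 7.19%, 6.64%, 6.15% and 5.98% were called lower in these comparisons, so 0 of 26 is no clear contrast with the background. The median phenotype of the family lay between -0.18 and -0.06, beside -0.12 to -0.05 for all promoters. Under dasatinib the only call was IRS2, an insulin receptor substrate that also docks PI3K and GRB2, which was lower in both libraries at -2.11 ± 0.37 (LGR, adjusted p = 0.000862) and -1.95 ± 0.56 (legacy, adjusted p = 0.00685). Of all promoters 0.397% (LGR) and 0.516% (legacy) were called lower there. IRS2 gave -0.07, 0.01, 0.03 and -0.57 in the 1000-fold, 100-fold, LGR DMSO and legacy DMSO comparisons and was not called there.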

How the data were processed

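The authors counted guides with their iteration of the ScreenProcessing pipeline (version not given in the sources used here) after demultiplexing with bcl2fastq, and the submitters' processing notes name hg19. The deposited values used here are raw counts per guide, 1 file per sample, with no normalization. Total counts and the replicates behind each group are given with the results. Members and gene lists were chosen with earlier results of these data known.

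Per guide, counts were tested with edgeR 4.0.16 (quasi-likelihood, TMM scaling, R 4.3.3) over all guides with at least 10 counts in 1 sample of the comparison, and Benjamini-Hochberg adjusted p under 0.05 was called. The SE beside an edgeR log2 fold change was derived, as its absolute value divided by the square root of the F statistic. It is approximate, above all for guides with few counts. Per promoter, the study's gene score was rebuilt in Python 3.11.15: log2 enrichment in CPM, read counts scaled to a common total (a count of 0 set to 1), against the mean log2 level of the controls, minus the median of the non-targeting guides, averaged over the 3 strongest guides. Guides needed a mean of 50 counts in either arm. All kept guides of a promoter were compared with the non-targeting guides by an exact Mann-Whitney test, which runs over guides and not over samples, with Benjamini-Hochberg adjustment in place of the pseudo-gene threshold of the pipeline. Non-targeting guides were called by edgeR in 0 to 51 of up to 1890 cases per comparison. For the 1000-fold screen, with 1 T0 sample, the spread came from Tf alone. The fits and scores were tested on simulated data.

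All 10 members were named. A member called in any comparison had its guides described, and of the other genes BCR, ABL1 and the 3 called genes of largest phenotype per direction were named. Comparisons of DMSO with T0 and of DASA with DMSO share their DMSO samples. Alternatives were DESeq2 1.42.0, limma 3.58.1 (on the mean log2 CPM of a promoter's kept guides), other scalings and filters, and each sample left out. The replicate number as a block was another, which in the promoter score used same-numbered pairs only. limma on the differences between libraries and coverages was added after seeing the data. The LGR plasmid was the CRISPRi sample sequenced on a HiSeq, taken by its title, since another of its labels reads CRISPRa. Unused sample columns numbered 0. The authors' MAGeCK-VISPR and BAGEL2 steps were not repeated. PCR reads carry no molecular identifiers.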

Additional observations from a re-analysis of the deposited data

Results flagged for a closer look

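GAB2 in the 100-fold screen had a Tf sample apart from the other 3 samples: its phenotype was -1.79 in sample 1, against -2.73 to -2.58 in the others. This was 1 of 12 promoters examined in that group of 4 samples, and by chance about 1 group in 20 would stand out so. GAB2 remained called in each of its 11 alternatives in that screen.

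The guide against PTPN11 at 112856929 changed differently in the LGR and legacy libraries between T0 and DMSO, by a log2 difference of -3.54 (edgeR interaction, adjusted p = 0.0323). Its LGR DMSO samples held 4 and 2 counts.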

How the results depend on the processing

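Counts of called members moved by more than 1.5 times in 13 settings and stayed within that in 56, beside the fits that left out a sample, and no called promoter or guide changed sign. With T0, DMSO and DASA in 1 edgeR fit the member guides called in DMSO against T0 were 3 (LGR) and 2 (legacy), and those in DASA against DMSO 1 and 2. DESeq2 gave 1 and 2 in DASA against DMSO, and total counts without TMM gave 0 in legacy. limma over samples called 5 member promoters in LGR and 5 in legacy DMSO against T0, 1 in legacy DASA against DMSO, and 0 in the difference between libraries (the last chosen after seeing the data). Across all guides, DASA against DMSO gave 4 lower and 97 higher with LGR by edgeR, 355 and 1743 by DESeq2 and 235 and 973 in 1 fit with T0. With legacy these were 35 and 574, 369 and 2044, and 461 and 1899. In DMSO against T0 the 1 fit called 1678 lower with LGR and 2458 with legacy, against 7635 and 6993.

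Leaving out each sample in turn gave 12 to 13 member guides at 1000-fold coverage, 4 to 9 at 100-fold coverage, 4 to 15 in LGR DMSO, 2 to 9 in legacy DMSO, 0 to 15 in LGR DASA and 0 to 8 in legacy DASA. The DASA counts rose to 8 or more only without a DASA sample, which leaves the spread to the DMSO pair: 8 and 15 without LGR DASA samples 1 and 2, and 8 and 8 for legacy. Calls over all guides and over non-targeting guides rose as well in each of these fits without a DASA sample. The rise was therefore not specific to members, and these member counts are no evidence of a member effect. In DMSO against T0, calls over all guides and non-targeting guides likewise rose without a DMSO sample. They fell without a T0 sample there and at 100-fold coverage. The library difference in DMSO gave 0 to 1, and the other differences 0 throughout. Member promoters called were 3 to 3, 2 to 3, 2 to 3 and 1 to 2 in the 4 growth comparisons and 0 to 0 under dasatinib.

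With the replicate number as a block, 8 member guides and 2 member promoters were called at 100-fold coverage. There was 1 guide in LGR DASA and 2 in legacy DASA, with 0 promoters in either and 0 guides in the differences. The promoter score at 100-fold coverage used same-numbered pairs only in this setting, without Tf samples 3 and 4. Equal numbers did not deviate together (correlation of deviations 0.00318, 0.00162 and 0.000362), so the numbers are labels only. No paired analysis was possible because T0 samples carry letters or a lone number in the 1000-fold, DMSO against T0 and related comparisons.

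Counts were low for some guides of the dasatinib screen: LGR DMSO held a GAB2 and a GRB2 guide at 0 counts in 1 sample each, and guides below the minimum leave 1 or 2 per promoter. Intervals and tests over samples cover counting and technical spread only, and the Mann-Whitney test covers spread between guides only. Promoter calls of GRB2 P1 and PTPN11, and those of GAB2 and SHC1 P2 in legacy DMSO, differ between the rank test over guides and limma over samples. The cause was not tested.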
